A study of Mus musculus with 6 samples.

Results

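The genes described here are 8 genes of thyroid hormone action, followed in mouse neural stem progenitor cells: the receptors Thra and Thrb, the deiodinases Dio2 and Dio3, the corepressors Ncor1 and Hr, and the response genes Klf9 and Thrsp. They were chosen by symbol, with the PTN against Control values of this study in view, and each matched 1 of the 22322 genes in the deposited table. The cells were wild type and were collected 24 h after PTN, read here as the secreted growth factor pleiotrophin, or after PBS, the Control. Each group had 3 libraries, summing to 25975205, 22331599 and 19267764 estimated counts in PTN 1, 2 and 3 and to 23530118, 26341745 and 21268297 in Control 1, 2 and 3. The series title places the treatment in conditioned medium. The PTN dose and the composition of the medium, thyroid hormone included, are not stated in the sources used here. No label says whether the replicates were separate cultures or animals, so each p-value reflects the spread among these libraries alone, and that spread may be technical.

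Thyroid hormone reaches the brain mostly as thyroxine (T4), which type 2 deiodinase, made from Dio2 in astrocytes and tanycytes, converts into the active hormone T3. Type 3 deiodinase, made from Dio3, inactivates both. T3 binds the nuclear receptors encoded by Thra and Thrb. Without hormone these receptors hold corepressors such as NCoR1 on their target genes, and with hormone they exchange them for coactivators. Hr and Klf9 are classical T3-induced genes of the brain, and Thrsp is one of the liver.

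The libraries carried the markers of the labelled cell type: Nes, Sox2, Vim, Fabp7 and Egfr were present in all 6, and the 10 neural stem and progenitor markers summed to 8170 to 9360 CPM (counts scaled to library size) in PTN and 6050 to 6900 CPM in Control libraries. Of these 10, Vim and Egfr rose and 0 fell. Astrocyte markers were also abundant. Their sum over 9 genes was 4760, 8190 and 5510 CPM in PTN 1, 2 and 3, against 10100, 10200 and 10100 CPM in Control 1, 2 and 3. By this sum PTN 2 lay nearest to Control, as it did for Gfap, Slc1a2, Gjb6 and Aldoc. For Aqp4 and Gja1 PTN 2 lay above every Control library, at 841 and 679 CPM against at most 453 and 351 CPM. For Aldh1l1, S100b and Slc1a3 another PTN library lay nearest to Control. Of the 9 astrocyte markers 3 fell (Gfap, Gjb6 and Aldoc) and 0 rose. Aldh1l1 and Slc1a2, with log2 fold changes of -0.36 and -0.82, were not called. Aqp4, S100b, Slc1a3 and Gja1, at 0.24, 0.65, 0.37 and 0.39, were not called either. S100b and Slc1a3 had PTN values wholly above Control, and Aldh1l1 wholly below, so the astrocyte markers did not move as one. The 7 oligodendrocyte lineage markers summed to 392 to 520 CPM in PTN and 492 to 590 CPM in Control libraries, most of it from Olig2. Of 6 tested, Pdgfra and Cspg4 fell, 3.90-fold and 1.81-fold (edgeR adjusted p = 0.0145 and 0.0169), and 0 rose. Neuroblast and neuron markers summed to 298 to 503 CPM in PTN and 252 to 383 CPM in Control, most of it from Map2. Of 7 tested, 0 rose and 0 fell. Tubb3 had PTN values wholly below Control, and the rare Rbfox3 and Snap25 wholly above. Ependyma and choroid plexus markers summed to 76.4 to 119 CPM in PTN and 84.3 to 102 CPM in Control. Fibroblast and meninges markers summed to 15.3 to 38.7 CPM in PTN and 86.1 to 107 CPM in Control, with Slc22a6 at 0 in every library and Pdgfra, which is also an oligodendrocyte lineage marker, making up most of the sum. Microglial, endothelial and mural, and tanycyte marker lists summed to at most 14 CPM in any library. The mural marker Pdgfrb fell 5.62-fold (edgeR adjusted p = 0.00187). The other genes of its list went either way. Kdr, Pecam1 and Rgs5, with log2 fold changes of 1.175, 0.78 and -0.145, were not called (edgeR adjusted p = 0.069, 0.359 and 0.749). Too low to be tested were Cdh5, with means of 0.544 CPM in PTN and 0.102 CPM in Control, and Cldn5, with 0.0129 and 0.107 CPM. The tanycyte transcription factor gene Rax had CPM values of 0, 0.0446 and 0 in PTN and 0 in all Control libraries. The part of these cell type markers in the results below was not tested. Mitochondrial genes took 3.97% to 8.12% of counts in PTN and 4.47% to 7.47% in Control libraries. PTN 3 had the least mitochondrial RNA and the least RNA from Y-linked genes, 7.94 CPM against 30.3 to 102 CPM in the other 5 libraries.

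Across all 13161 genes that passed the filter on low counts, edgeR's quasi-likelihood test called 7.99% with an adjusted p below 0.05, 4.93% higher and 3.06% lower in PTN. The PTN and Control values of 32.9% of tested genes did not overlap, with PTN below in 17.1%. All 8 members passed the filter. Dio3 did so only through its Control counts. Of the 8 members 3 were called, all lower in PTN, and the same 3, Hr, Dio3 and Thrsp, had groups that did not overlap. Since the members were picked from this contrast, these counts are a description, and no p-value is given for them. In bulk RNA, fewer cells of a type and less RNA per cell cannot be told apart.

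**Figure D1:**
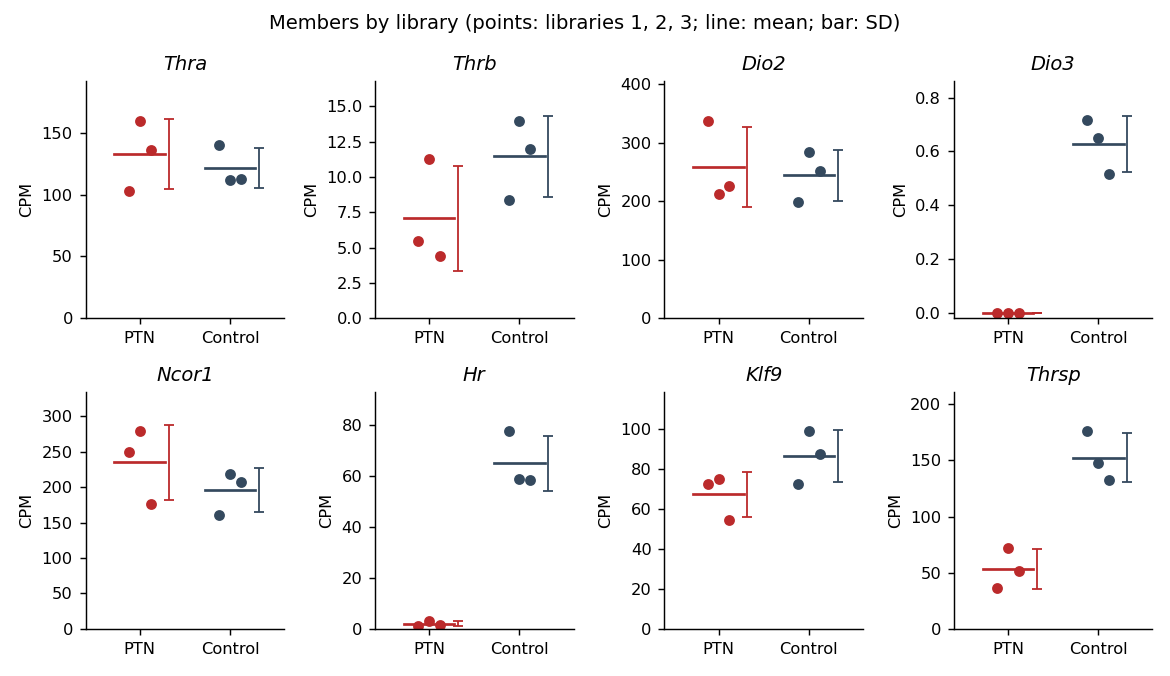
CPM of each member in the 3 PTN libraries (red, left) and the 3 Control libraries (dark, right). Points are libraries, horizontal lines are means and vertical bars are SDs, and each panel has its own scale. Hr, Dio3 and Thrsp have PTN values wholly below Control, while the other members' groups overlap.

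Neither receptor gene had groups that were separate. Thra, which encodes the receptor that predominates in the developing brain, had 103, 160 and 136 CPM in PTN 1, 2 and 3, against 140, 112 and 113 CPM in Control 1, 2 and 3. The groups overlapped, with the lowest and the highest value both in PTN. The mean was 133 ± 28.8 CPM in PTN and 122 ± 15.8 CPM in Control (SD, n = 3 each), a log2 fold change of 0.13. Without PTN 2 it was -0.03. Thra shares 263 exonic bases at its end with the clock repressor gene Nr1d1, which lies on the opposite strand in the GENCODE M21 annotation. Their estimated counts were fractional in all 6 libraries, and the 2 genes' counts added up to a whole number in each. Reads of Thra and Nr1d1 can therefore not be fully told apart here. Taken jointly, the pair had 135, 217 and 191 CPM in PTN 1, 2 and 3, against 183, 144 and 145 CPM in Control 1, 2 and 3, again overlapping.

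Thrb, the other receptor gene and itself hormone-responsive in some tissues, was low. It had 5.47, 11.3 and 4.42 CPM in PTN 1, 2 and 3, against 8.37, 14 and 12 CPM in Control 1, 2 and 3. PTN 1 and PTN 3 lay below every Control library, and PTN 2 lay inside the Control range. The mean was 7.07 ± 3.72 CPM in PTN and 11.4 ± 2.85 CPM in Control (SD, n = 3 each), a log2 fold change of -0.69, which was -1.21 without PTN 2 and -0.45 without PTN 3. Per gene length the receptors differed far more from each other than between groups. The ratio of Thra to Thrb in FPKM (fragments per kilobase of gene length, scaled to library depth) was 26, 27.1 and 70.3 in PTN 1, 2 and 3, against 33.4, 15.3 and 19.5 in Control 1, 2 and 3. The ratio was highest in PTN 3, and the groups overlapped.

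The 250 bases upstream of the first RefSeq start of Thrb are shown because they held the hexamer AGGTCA, the half-site that thyroid hormone receptors and other nuclear receptors bind. The window lies on the plus strand of GRCm38.p6 at chr14:17660710-17660959, and capitals mark the hexamer.
Thrb: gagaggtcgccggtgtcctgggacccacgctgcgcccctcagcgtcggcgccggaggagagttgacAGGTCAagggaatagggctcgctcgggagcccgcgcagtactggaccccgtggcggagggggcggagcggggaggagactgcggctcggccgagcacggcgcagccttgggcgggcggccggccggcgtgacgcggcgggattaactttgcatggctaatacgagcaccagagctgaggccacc
The hexamer covers bases 184 to 179, counted from 1 at the 3′ end of the window. Promoter windows were found for 6 of the 8 members, 8 windows in all, since Ncor1 and Thrb have 2 each. Hr and Thra were not matched. Searching both strands, AGGTCA was in 1 of these 8 windows and in 4607 of the 32851 windows in the RefSeq table. The DR4 form, in which AGGTCA is repeated in the same direction after 4 other bases, a classical thyroid hormone response element, was in none of the 8 and in 0.0152% of all windows. A match is a string of letters and not a shown site.

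The deiodinases differed in level and in how they compared between groups. Dio2, the activating enzyme, had 338, 213 and 226 CPM in PTN 1, 2 and 3, against 198, 284 and 252 CPM in Control 1, 2 and 3. PTN 1 was the highest library and Control 1 the lowest, and the groups overlapped. The mean was 259 ± 69 CPM in PTN and 245 ± 43.3 CPM in Control (SD, n = 3 each). The log2 fold change of Dio2 was 0.08, and it took either sign when single libraries were left out, from -0.16 without PTN 1 to 0.21 without PTN 2. Dio2 shares 100 exonic bases with the RNA gene Gm26512 on the opposite strand, and without strand information reads there cannot be told apart.

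Dio3, the inactivating enzyme, had 0 counts in each of the 3 PTN libraries, against 17, 17 and 11 counts in Control 1, 2 and 3. No PTN library held a single read, and every Control library held more than 10. In Control cells this was 0.718, 0.65 and 0.515 CPM, so Dio3 was a rare transcript there too. A count of 0 over the PTN group allows up to 3 counts, or 0.0445 CPM, against 0.632 CPM over the Control group. Dio3 was thus at least 14.2-fold lower in PTN, if the Control level is taken as exact. This bound covers the counting error of the PTN group only. The third deiodinase gene, Dio1, had 0 CPM in all PTN libraries and 0, 0 and 0.0468 CPM in Control 1, 2 and 3, under the filter.

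The upstream windows of both deiodinase genes are shown because their levels differed so widely in the same cells. The Dio2 window lies on the minus strand at chr12:90739039-90739288 and the Dio3 window on the plus strand at chr12:110278980-110279229 (GRCm38.p6). Capitals mark the cAMP response element TGACGTCA and the core promoter element TATAAA. They also mark CCAAT on either strand.
Dio2: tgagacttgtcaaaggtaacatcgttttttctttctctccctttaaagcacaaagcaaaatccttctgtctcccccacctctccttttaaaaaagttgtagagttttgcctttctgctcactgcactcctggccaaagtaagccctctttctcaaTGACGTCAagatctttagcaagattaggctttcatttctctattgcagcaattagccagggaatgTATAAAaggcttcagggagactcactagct
Dio3: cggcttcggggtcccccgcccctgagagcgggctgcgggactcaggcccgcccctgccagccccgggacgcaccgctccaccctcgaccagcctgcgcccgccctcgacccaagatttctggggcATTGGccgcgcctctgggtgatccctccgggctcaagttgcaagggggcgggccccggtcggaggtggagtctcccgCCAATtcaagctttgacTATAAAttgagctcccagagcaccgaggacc
Both hold a TATAAA some 30 bases upstream (bases 30 to 25 in Dio2 and 31 to 26 in Dio3). At any position and on either strand, TATAAA was in 12.4% of all windows, and the share with it near base 30 was not counted. TGACGTCA was in the Dio2 window, at bases 95 to 88, and in 1.55% of all windows, and CCAAT was in the Dio3 window on each strand and in 33.8% of all windows. GC content was 41.6% in the Dio2 window and 69.6% in the Dio3 window, with a median of 52.4% over the table.

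The corepressors were unlike each other. Ncor1, the platform that brings the deacetylase HDAC3 to unliganded receptors, had 250, 279 and 176 CPM in PTN 1, 2 and 3, against 161, 219 and 208 CPM in Control 1, 2 and 3. The groups overlapped, with PTN 3 below both Control 2 and Control 3. The mean was 235 ± 53.1 CPM in PTN and 196 ± 30.7 CPM in Control (SD, n = 3 each), a log2 fold change of 0.26. Fold changes were related to gene length in these libraries, with median log2 fold changes of 0.28 among the longest eighth of genes and -0.21 among the shortest. Ncor1 belongs to the longest eighth, and with a length trend removed from each library its log2 fold change was -0.01. Ncor1 shares 82 exonic bases with Pigl.

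Hr encodes Hairless, a corepressor of thyroid hormone, vitamin D and ROR receptors that is itself induced by T3. It had 1.32, 3.08 and 1.66 CPM in PTN 1, 2 and 3, against 77.7, 59 and 58.7 CPM in Control 1, 2 and 3. In counts these were 34, 69 and 32 in PTN, against 1838, 1543 and 1254 in Control. Every PTN library was far below every Control library, and PTN 2 was the highest of the PTN libraries. The mean of Hr was 2.02 ± 0.931 CPM in PTN and 65.1 ± 10.9 CPM in Control (SD, n = 3 each), a log2 fold change of -5.01. It lay between -5.45 and -4.76 in all 15 alternative settings, the ends being those without PTN 2 and without PTN 1. Set against Ncor1 in the same library, Hr stood at 0.00427, 0.00831 and 0.00727 of the Ncor1 FPKM in PTN 1, 2 and 3, against 0.371, 0.209 and 0.226 in Control 1, 2 and 3.

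The response genes Klf9 and Thrsp were not alike. Klf9, a zinc finger factor of the Krüppel-like family that T3 and glucocorticoids induce, had 72.2, 75.1 and 54.5 CPM in PTN 1, 2 and 3, against 72.6, 98.7 and 87.5 CPM in Control 1, 2 and 3. The groups overlapped only through Control 1. The mean was 67.3 ± 11.2 CPM in PTN and 86.2 ± 13.1 CPM in Control (SD, n = 3 each), a log2 fold change of -0.36, and the value stayed negative in all 15 settings, from -0.49 to -0.23.

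Thrsp, also called Spot 14, is a lipogenic T3 target of the liver that in mouse neural stem cells is known to mark slowly dividing progenitors. It had 36.6, 72.4 and 51.9 CPM in PTN 1, 2 and 3, against 176, 148 and 133 CPM in Control 1, 2 and 3. The highest PTN library, PTN 2, was still well below the lowest Control library. The mean was 53.7 ± 18 CPM in PTN and 152 ± 21.6 CPM in Control (SD, n = 3 each), which is 2.84-fold lower in PTN, a log2 fold change of -1.51. Over the 15 settings it ranged from -1.79 without PTN 2 to -1.29 without PTN 1, and it was -1.37 with the length trend removed.

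The upstream window of Thrsp is shown as that of the member with the highest FPKM in Control cells. It lies on the minus strand of GRCm38.p6 at chr7:97417551-97417800, and capitals mark CCAAT on either strand.
Thrsp: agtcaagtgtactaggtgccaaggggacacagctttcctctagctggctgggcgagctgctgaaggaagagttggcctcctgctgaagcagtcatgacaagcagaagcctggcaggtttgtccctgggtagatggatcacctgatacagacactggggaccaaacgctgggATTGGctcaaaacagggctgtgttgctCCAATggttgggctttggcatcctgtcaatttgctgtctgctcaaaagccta
It held CCAAT at bases 52 to 48 and its reverse complement at bases 79 to 75. AGGTCA, TGACGTCA and TATAAA were not among its letters.

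Per gene length, Thrsp led the members in Control cells at 120 ± 17.2 FPKM, above Thra at 54.3 ± 8.71, Ncor1 at 45.7 ± 6.62 and Dio2 at 42.1 ± 7.22 FPKM (SD, n = 3). In PTN cells the order began with Thra at 57.8 ± 12.9 FPKM, Ncor1 at 55 ± 13.1, Dio2 at 44.4 ± 11.6 and Thrsp at 42 ± 14.3 FPKM (SD, n = 3). Within PTN the ranges of these 4 neighbours overlapped, as did those of Thra, Ncor1 and Dio2 within Control. Klf9 came next in either group, at 15 ± 2.51 FPKM in PTN and 19.2 ± 2.81 FPKM in Control (SD, n = 3 each). Hr and Thrb changed places, with Hr at 0.367 ± 0.17 FPKM in PTN and 11.9 ± 2.03 FPKM in Control, and Thrb at 1.71 ± 0.87 FPKM in PTN and 2.55 ± 0.591 FPKM in Control (SD, n = 3 each). Dio3 was last in both.

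**Figure D2:**
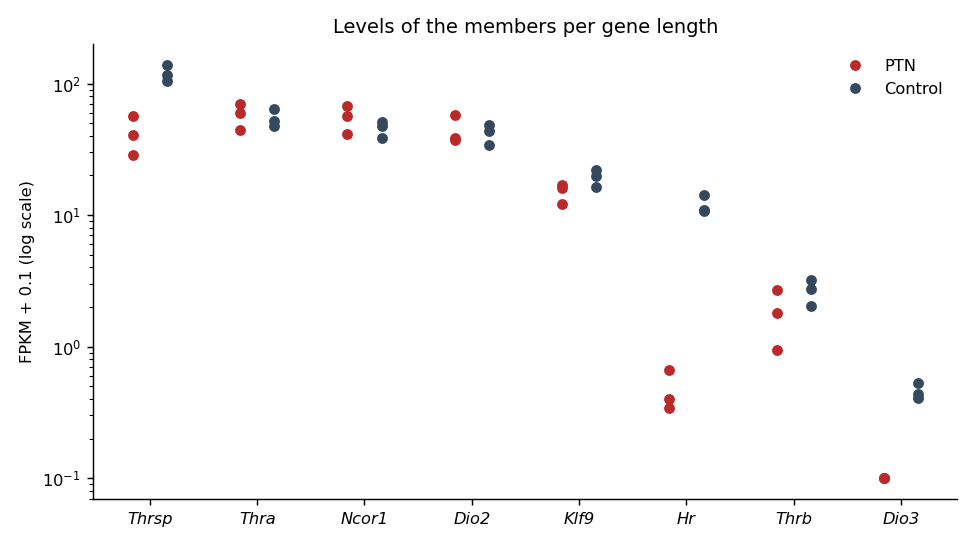
FPKM + 0.1 of each member on a log axis, with genes in the order of their Control mean, PTN libraries in red on the left and Control libraries in dark on the right. Thrsp leads in Control, Hr lies above Thrb in Control and below it in PTN, and the 3 PTN values of Dio3 sit at FPKM 0.

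Libraries also spread differently from gene to gene. Thrb had the largest coefficient of variation, 52.6% in PTN and 24.9% in Control, followed in PTN by Hr at 46.1% and Thrsp at 33.5%. PTN 2 was the highest PTN library for Hr, Thrb, Thrsp, Klf9, Thra and Ncor1, but the lowest for Dio2. It was also the PTN library with the largest sum of astrocyte markers, 8190 CPM. The part of astrocytes in the members' values was not tested, and their markers did not all move the same way. Without PTN 2 the log2 fold changes of Hr, Thrsp and Thrb were -5.45, -1.79 and -1.21.

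The annotation terms of the deposited table join some members. Thra, Thrb, Dio2, Dio3 and Ncor1 carry the thyroid hormone signaling pathway, while Hr, Klf9 and Thrsp do not. Hr, Thra, Thrb and Ncor1 share the term for negative regulation of DNA-templated transcription. Of the 3 members whose groups did not overlap, only Dio3 belongs to the annotated pathway.

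By the distance between centred log2(CPM + 0.5) profiles over the 6 libraries, among 12177 genes with a mean of at least 1 CPM, the genes most like Hr were Fam107a, Cntnap2, Mylk2 and Tgm1. Their root mean square distances from Hr were 0.74, 0.95, 1.03 and 1.05 log2 units, and the median over all genes was 2.41. Fam107a, whose product binds actin, had 1.94, 5.26 and 5.1 CPM in PTN 1, 2 and 3, against 43, 50.5 and 44.5 CPM in Control 1, 2 and 3. Among 12178 genes, those most like Dio3 were Hilpda, Car14, Kcnj10 and Pepd, at distances of 0.09 to 0.12 with a median of 0.63. Since the added 0.5 CPM is close to the level of Dio3, its profile is flattened and the likeness is to genes of milder difference. Kcnj10, a glial potassium channel gene, had 1220, 1290 and 1290 CPM in PTN 1, 2 and 3, against 2730, 2740 and 2940 CPM in Control 1, 2 and 3.

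Whether the rest of the pathway differed was read from 75 other genes in 8 lists, grouped by function and chosen, like the members, with earlier results of these data known. Of 70 that could be tested 6 rose and 5 fell, or 15.7%, against 7.99% of all tested genes. This share is a description of the chosen lists. Their median log2 fold change was 0.02, against 0.03 for all tested genes. The transporters and response genes held 10 of these 11 calls and the coactivators 1. Left out in turn, single libraries gave 6 to 17 calls, with 7, 10 and 17 without PTN 1, 2 and 3 and 7, 6 and 6 without Control 1, 2 and 3.

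**Figure D3:**
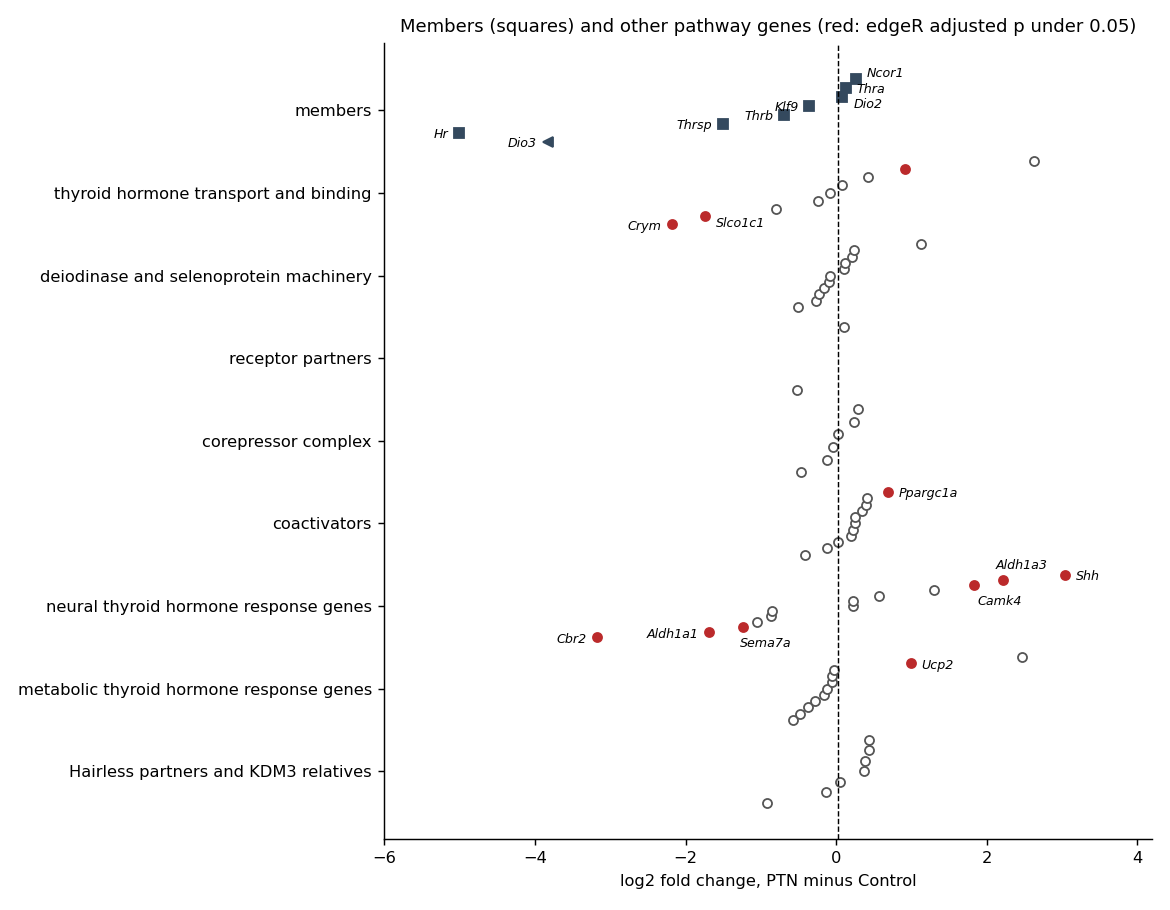
Log2 fold change, PTN minus Control, of the members (dark squares, with no test) and of the tested genes of each other pathway list (circles, red where the edgeR adjusted p was under 0.05, and all but 1 of those labelled). The triangle for Dio3 is its bound of -3.83, and the dashed line is the median of all tested genes, 0.03. Calls lie mainly among transporters and neural response genes, on either side.

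Carriers and binding proteins of the hormone moved in opposite directions, with 1 of 9 higher and 2 lower. Slco1c1, a T4 transporter of brain vessels and astrocytes, had 1.63, 2.72 and 3.85 CPM in PTN 1, 2 and 3, against 9.04, 9.44 and 8.7 CPM in Control 1, 2 and 3. It fell by 1.74 on the log2 scale (SE 0.30, edgeR adjusted p = 0.0113). Every PTN library lay below every Control library.

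Crym encodes mu-crystallin, which binds T3 in the cytosol. It had 1.05, 0.624 and 1.66 CPM in PTN 1, 2 and 3, against 4.65, 5.24 and 5.15 CPM in Control 1, 2 and 3. Crym fell by 2.18 on the log2 scale (SE 0.35, edgeR adjusted p = 0.00878). The calls of Slco1c1 and Crym held in all 15 alternative settings, with the highest adjusted p at 0.0472 and 0.0378. The amino acid and hormone carriers Slc7a5, Slc7a8 and Slc3a2 had log2 fold changes of -0.24, -0.08 and 0.08 and were not called. Ttr, the secreted T4 carrier of choroid plexus, had 15.8 CPM in PTN 3 and at most 2.11 CPM in the other libraries, and was not called (edgeR adjusted p = 0.138).

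By edgeR, 0 of the 11 tested genes of deiodinase turnover and selenoprotein synthesis were called, 0 of the 2 receptor partners and 0 of the 6 corepressor complex genes. In these lists 2, 1 and 1 genes had an unadjusted edgeR p under 0.05. DESeq2's Wald test called Wsb1 and Hdac3 among them, and limma-voom called 0. Their log2 fold changes lay between -0.53 and 1.13. Wsb1, which marks type 2 deiodinase for degradation, had 99.7, 167 and 65.2 CPM in PTN 1, 2 and 3, against 35.1, 67.1 and 49.9 CPM in Control 1, 2 and 3 (edgeR adjusted p = 0.0837). Its adjusted p was 0.0174 by edgeR without PTN 3 and 0.00838 by DESeq2. By edgeR without PTN 1, PTN 2 or any 1 Control library it was 0.0998 to 0.269. Rxrb, a partner of the receptors on DNA, had a log2 fold change of -0.53 with an SE of 0.19 (edgeR adjusted p = 0.127). Hdac3, the deacetylase that NCoR1 carries, had a log2 fold change of -0.47 with an SE of 0.15 (edgeR adjusted p = 0.0925). Its adjusted p was 0.0398 by edgeR without PTN 3 and 0.0477 by DESeq2. By edgeR without PTN 1, PTN 2 or any 1 Control library it was 0.148 to 0.24.

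Of 11 coactivators 1 rose. Ppargc1a, which encodes the coactivator PGC-1alpha, had 64.1, 56.4 and 52.7 CPM in PTN 1, 2 and 3, against 30.2, 40.1 and 37.7 CPM in Control 1, 2 and 3. Its log2 fold change was 0.68 ± 0.16 (SE, edgeR adjusted p = 0.0368), and the call was lost, with an edgeR adjusted p of 0.063 to 0.144, without any 1 of PTN 1, PTN 2, Control 1, Control 2 and Control 3. The other 10, among them Ncoa1, Med1 and Ep300, were not called. Of the 7 nuclear receptor partners and histone demethylase relatives of Hairless, edgeR, DESeq2 and limma-voom called 0, and 0 had an unadjusted edgeR p under 0.05. Their log2 fold changes lay between -0.92 and 0.44.

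Genes reported to respond to thyroid hormone in neural tissue were called in both directions, 3 higher and 3 lower of 13 tested. Shh, the morphogen gene, had 6.44, 2.9 and 5.67 CPM in PTN 1, 2 and 3, against 0.761, 0.573 and 0.468 CPM in Control 1, 2 and 3. It rose by 3.04 on the log2 scale (SE 0.39, edgeR adjusted p = 0.00444). Sema7a, a membrane-anchored semaphorin gene, had 29, 21 and 27.9 CPM in PTN 1, 2 and 3, against 62, 57.2 and 64.4 CPM in Control 1, 2 and 3, and fell by 1.23 (SE 0.17, edgeR adjusted p = 0.00502). For both genes the groups were well separated, and both calls held in all 15 settings.

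The retinoic acid synthesis genes Aldh1a1 and Aldh1a3 went opposite ways. Aldh1a1 had 13.8, 25.9 and 16.3 CPM in PTN 1, 2 and 3, against 55.7, 70 and 54.9 CPM in Control 1, 2 and 3, and fell by 1.69 on the log2 scale (SE 0.24, edgeR adjusted p = 0.0064). Aldh1a3 had 77.2, 18.1 and 60 CPM in PTN 1, 2 and 3, against 12.4, 11.3 and 9.92 CPM in Control 1, 2 and 3. Its estimated counts were fractional in 4 of the 6 libraries, which makes its level less certain. It rose by 2.21 (SE 0.45, edgeR adjusted p = 0.0215), with 0.0646 to 0.0869 without any 1 of PTN 1, Control 1, Control 2 and Control 3. Aldh1a3, and the kinase gene Camk4 with a log2 fold change of 1.83, were named after their values were seen. The edgeR adjusted p of Camk4 was 0.0244, with 0.0596 to 0.113 without any 1 of PTN 1, Control 1, Control 2 and Control 3.

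Cbr2, a carbonyl reductase gene, had 2, 1 and 1 counts in PTN 1, 2 and 3, against 14, 14 and 13 counts in Control 1, 2 and 3. It fell (edgeR adjusted p = 0.01), with an edgeR adjusted p of 0.0512 without Control 3. The myelin gene Mbp, which is also an oligodendrocyte marker, was not called and had a log2 fold change of -0.86, with its lowest PTN value in PTN 3. Flywch2 had 0.466, 0.49 and 0.52 CPM in PTN 1, 2 and 3, against 0.888, 1.11 and 1.08 CPM in Control 1, 2 and 3, and was not called (edgeR adjusted p = 0.0976).

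Of 11 metabolic response genes 1 rose. Ucp2, a mitochondrial carrier gene, had 25.7, 31.7 and 25.2 CPM in PTN 1, 2 and 3, against 18.6, 11.7 and 11.5 CPM in Control 1, 2 and 3, with a log2 fold change of 0.99 with an SE of 0.22 (edgeR adjusted p = 0.0328). Its edgeR adjusted p was 0.0713 with the length trend removed and 0.0722 to 0.158 without any 1 of PTN 1, PTN 2, Control 2 and Control 3. The lipogenic genes Fasn, Acaca, Scd1 and Me1, which T3 induces in liver together with Thrsp, had log2 fold changes of -0.57, -0.38, -0.12 and -0.06 and were not called. Among the uncalled genes of the list, Acaca and Gpd2 had PTN values wholly below Control, and Pck1 wholly above. Of the 11 genes 9 had a negative log2 fold change and 2 a positive one, against 47.5% negative over all tested genes. The counts of Scd1 were fractional in all 6 libraries. The Thrsp paralog Mid1ip1 had 186, 272 and 278 CPM in PTN 1, 2 and 3, against 280, 229 and 237 CPM in Control 1, 2 and 3, with overlapping groups.

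**Figure D4:**
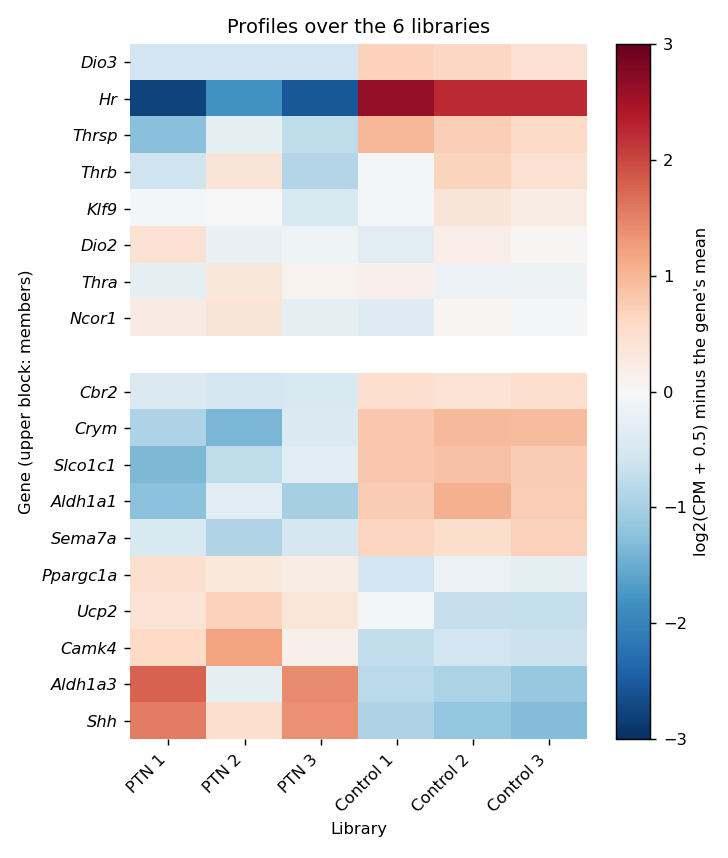
Log2(CPM + 0.5) minus each gene's mean over the 6 libraries, for the 8 members (upper block) and 10 of the 11 called genes of the other pathway lists (lower block), with PTN libraries on the left and Control libraries on the right. Red is above and blue below the gene's mean. Hr shows the widest split, and PTN 2 lies nearer to the Control libraries than PTN 1 and PTN 3 for Hr, Thrsp and Thrb.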

How the data were processed

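Mouse neural stem progenitor cells were profiled by RNA-seq, 3 PTN and 3 Control libraries, from RNA isolated on columns and made into SMARTER mRNA libraries, per the labels' protocols. The authors deposited 1 expected count per gene and library, an estimate of its reads that was not scaled between libraries. The authors also deposited FPKM values, those counts per kilobase and scaled by depth. No aligner, counting program, genome build or strandedness is stated in the labels or the table. Columns were matched to samples by group letter and replicate number.

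Expected counts were rounded. Genes were kept by filterByExpr (13161 of 22322), scaled by TMM (factors 0.993 to 1.01) and compared by edgeR's quasi-likelihood test (edgeR 4.0.16 in R 4.3.3). Fold changes are PTN over Control, with Benjamini-Hochberg adjustment over all tested genes and calls under 0.05. CPM uses TMM-scaled totals, so 1 CPM stands for 19.2 to 25.8 counts. The SE is the log2 fold change divided by the square root of F. On simulated counts for 13087 genes, 98% of genes changed by 2 log2 units and 56% of those changed by 1 unit were recovered, 100 genes each, with 6 false calls. The simulation gave every gene the same spread beyond counting error, so these rates need not hold for genes that varied more between libraries.

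The members and lists were chosen with earlier results of these data known. Named were all members, up to 4 called genes per list by smallest p or otherwise the gene of smallest p, and the 4 genes nearest to the 2 members of largest fold change. The genes of the lists given beyond this rule were chosen after their values were seen. Mbp, Crym and Ttr are also cell type markers. A few genes that the rule names are not reported here. The alternatives tried were 3 other scalings (DESeq2 size factors, upper quartiles, totals), 2 other filters (none, or 1 CPM in 3 libraries), 2 other tests (the Wald test of DESeq2 1.42.0 and voom of limma 3.58.1), a replicate block, a removed length trend (exon lengths from GENCODE M21 for 99.9% of tested genes), an adjusted p under 0.1, each library left out, and an FPKM pseudocount of 0.1 in place of 1. Promoter windows are RefSeq's, build GRCm38.p6, and the 250 bases upstream were used.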

Additional observations from a re-analysis of the deposited data

How the results depend on the processing

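The number of genes called, 1052, was 1908 by DESeq2's Wald test and 1913 at an adjusted p under 0.1, and ranged from 331 to 2177 when single libraries were left out. It was 2177 without PTN 3 and 513 without PTN 1, and 348, 404 and 331 without Control 1, 2 and 3. The cause was not tested. In the other settings it stayed within 1.5 times. The count of 11 other pathway genes ranged from 6 to 17 without single libraries and from 10 to 15 in the remaining settings. With the replicate number as a block, 726 genes and 12 of the pathway genes were called, Wsb1 among them (edgeR adjusted p = 0.0308), while Ppargc1a, Itgav, Wnt4 and Plcb1 were not (edgeR adjusted p = 0.0959, 0.0538, 0.106 and 0.0737). No label says that the numbers pair the samples. Deviations from the group mean correlated at -0.60, 0.36 and -0.19 between same-numbered libraries and at -0.72 to 0.67 between the others. With 3 libraries per group these correlations cannot settle whether there was a pairing. Of the member values under an alternative, 120 moved by less than the spread between replicates, and 7, of Hr and Dio3, moved by more: -5.45 for Hr without PTN 2, -6.25 by DESeq2 and -4.85 by limma-voom for Dio3, whose fitted values depend on how 0 counts are treated, -6.78 and -7.04 for Dio3 without Control 1 and Control 3, and the log2(FPKM + pseudocount) differences, -4.73 for Hr and -2.19 for Dio3 with a pseudocount of 0.1, against -3.23 and -0.44 with 1. Dio3 has no value under the filter of 1 CPM. Depth limits the rarest genes: Dio3 and Cbr2 rest on at most 17 counts in any library.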

Other observations

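The deposited table annotates 119 genes with the thyroid hormone signaling pathway, a list that was taken up after the data were seen. Of the 114 that are not members 99 were tested. Of these 3 rose and 3 fell, or 6.06%, against 7.99% of all tested genes, and the median log2 fold change was 0.02, against 0.03 over all tested genes. The integrin gene Itgav and the phospholipase gene Plcb1 were among those that rose, and Slco1c1 and Wnt4 among those that fell.

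Itgav rose by 0.91 (SE 0.21, edgeR adjusted p = 0.0342, with 0.0981 to 0.131 without any 1 of PTN 1, Control 1, Control 2 and Control 3 and 0.0773 with the length trend removed). Wnt4 and Plcb1 were near the threshold, with edgeR adjusted p of 0.0473 and 0.0496, and were lost in 8 and 9 of the 15 settings. Wnt4 was lost without any 1 library (0.0521 to 0.178), and Plcb1 without any 1 library other than PTN 3 (0.059 to 0.166).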
